A study of Mus musculus with 83 samples.

Results

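The colon of male C57BL/6J/Ukj mice was compared between 28 and 15 months of age to ask which genes differ in level between middle and old age. The members of the comparison were chosen by their age label alone, which gave 16 mice at 15 months and 18 mice at 28 months, 34 of the 83 mice in the series. Both groups were males of 1 inbred strain kept only to age, and the labels named no allele, transgene or agent in either. RNA came from the proximal section of the colon with all its layers, each library came from 1 mouse, and polyadenylated transcripts were read with their strand. The libraries were prepared in 3 batches, with 5, 7 and 4 mice of 15 months and 7, 5 and 6 mice of 28 months in batches 1, 2 and 3, so that both ages stood in every batch. In such bulk tissue, fewer cells of a type and less RNA per cell cannot be told apart. The labels did not give the hour of day at which the tissue was taken.

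The colon is lined by a single-layered epithelium that renews itself from crypt stem cells. Absorptive colonocytes take up salt, water and short-chain fatty acids, goblet cells secrete the mucus that keeps bacteria at a distance, and the rare tuft and enteroendocrine cells sense the content of the lumen. Beneath it lie macrophages, lymphocytes and plasma cells that release immunoglobulin A into the lumen, with fibroblasts, vessels, nerves and smooth muscle around them. Levels are given as CPM, the counts scaled to a common size of the normalized library. A gene was said to rise or fall where the 28-month against the 15-month contrast passed an adjusted p of 0.1 in edgeR's quasi-likelihood test with library batch in the model, and the adjusted p-values below are those of that test.

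Libraries held between 23026370 and 75838290 counts at 28 months and between 30201621 and 52924608 at 15 months. The tissue carried its defining transcripts at both ages, with a median of 6744 and 6014 CPM of Car1, the colonocyte carbonic anhydrase, at 15 and 28 months. For the components and distances given next, the log2 level of each gene was first centred within each batch. The centre was the midpoint between the 15-month and 28-month means of that batch, so the age labels entered this step. The first principal component held 17.3% of the variance left between these mice. Along it, the 15-month mice lay between -0.262 and -0.0693 and the 28-month mice between -0.0153 and 0.303, without overlap. Mouse 13 of the 28-month group stood apart along the second component, at 0.665 against at most 0.193 in any other mouse. The root mean square distance of a mouse from its age group ranged from 0.268 to 0.426 log2 units at 15 months and, without mouse 13, up to 0.421 at 28 months, whereas mouse 13 lay at 0.563. The spread between mice was larger at 28 than at 15 months for 60.8% of genes, and for 50.4% without mouse 13.

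Of 18325 genes tested, 3702 rose, which was 20.2% of them, and 4059 fell, which was 22.2%. Most of these changes were small, with a median absolute log2 fold change of 0.22. A change of more than 1.5-fold was seen in 402 genes that rose and 426 that fell, and more than 2-fold in 99 and 119. The mice of the 2 ages did not overlap at all for 27 genes that were higher at 28 months (0.147% of those tested) and 17 that were lower (0.0928%). Of all genes called, 90.6% kept one direction when batches 1, 2 and 3 were fitted separately. A test of whether the difference between the ages itself differed between batches called 0 genes (0%) in edgeR, with 1203 genes at an unadjusted p below 0.05. In the 17 mice of 24 months, the mean lay between the means of the 2 ages for 88% of the genes that rose and 89.3% of those that fell.

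The promoters of the largest rise and of the largest fall among the genes named by size with an entry in the RefSeq promoters (build GRCm38.p6, 250 bases before to 50 bases after the start of the gene) are shown with their CpG dinucleotides, the sites of DNA methylation, in capitals, since Tfap2a and Mptx1 lead the 2 directions. Tfap2a encodes the transcription factor AP-2 alpha of neural crest and skin development, and Mptx1 encodes mucosal pentraxin, a secreted protein of the gut epithelium. The Tfap2a promoter lies at chr13:40734871-40735170 on the minus strand and the Mptx1 promoter at chr1:174330268-174330567 on the plus strand.
Tfap2a: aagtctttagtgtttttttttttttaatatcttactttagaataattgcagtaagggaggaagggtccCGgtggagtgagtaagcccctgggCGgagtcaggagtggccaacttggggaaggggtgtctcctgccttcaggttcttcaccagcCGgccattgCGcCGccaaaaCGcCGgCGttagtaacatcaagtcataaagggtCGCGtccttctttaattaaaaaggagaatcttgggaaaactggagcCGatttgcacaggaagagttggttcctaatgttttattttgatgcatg
Mptx1: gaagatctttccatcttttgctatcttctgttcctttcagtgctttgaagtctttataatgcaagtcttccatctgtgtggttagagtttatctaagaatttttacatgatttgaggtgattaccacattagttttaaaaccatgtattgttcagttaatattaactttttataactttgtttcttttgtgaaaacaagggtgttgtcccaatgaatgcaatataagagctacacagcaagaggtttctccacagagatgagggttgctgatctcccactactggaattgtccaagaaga
The Tfap2a stretch held 11 CpGs, or 0.71 of the number expected from its C and G content, and the Mptx1 stretch held 0. Among the other large rises with an entry, the promoters held 25 CpGs for Irx2, 26 for Dmrta2, 19 for Ciart, 18 for Dbp, 9 for Gpnmb, 0 for Inmt and 0 for Mmp12. Among the other large falls with an entry, they held 14 for Cr2, 8 for Pnliprp2, 7 for Dmp1, 5 for Ang4, 3 for S100g, 2 for Pla2g4c, 2 for Clca2 and 0 for Itln1.

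Over all genes with a promoter entry, the observed over expected CpG ratio had a median of 0.683 in genes that rose, 0.762 in genes that fell and 0.722 in the 12716 tested genes with an entry. For genes that changed by more than 1.5-fold the medians were lower in both directions, 0.319 in 250 rises and 0.313 in 227 falls. The core motif of ETS factors, CCGGAAG on either strand, stood in 21.3% of the promoters of genes that fell, 11.3% of those that rose and 15.7% of all. Beyond 1.5-fold it stood in 3.96% of the falls and 4% of the rises, both below the share in all promoters. The 8-letter NRF1 core GCATGCGC stood in 5.55% of promoters of genes that fell, 3.9% of those that rose and 4.68% of all, but in 0.441% of the falls and 1.6% of the rises beyond 1.5-fold. A TATA box (TATAAA) was found in 18% of the rises and 18.9% of the falls beyond 1.5-fold, against 8.24% of all promoters. An AP-1 site (TGANTCA) was found in 11.2% and 13.2% of them, against 5.56% of all. The AP-2 core GCCNNNGGC stood in 26.4% of promoters of genes that rose, 21.9% of those that fell and 24% of all, and in 20.8% of the rises and 16.7% of the falls beyond 1.5-fold, both below the share in all promoters. Each motif was searched on both strands without regard to overlaps with the others, and a match is a description of the sequence only. The median merged exon length of genes that fell was 3539 bases against 4248 in genes that rose and 3807 in all tested.

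Developmental transcription factors with low levels at 15 months gave 3 of the 12 largest rises among protein-coding genes. Tfap2a ranged from 0.0833 to 0.312 CPM at 15 months (median 0.177) and from 2.7 to 5.03 CPM at 28 months (median 3.97). Its log2 fold change was 4.47 ± 0.17 (SE, adjusted p = 3.93e-36), and every mouse of 28 months lay above every mouse of 15 months. Irx2 ranged from 0.0907 to 0.43 CPM at 15 months (median 0.224) and from 1.35 to 2.96 CPM at 28 months (median 1.87). Irx2, a homeobox factor of the Iroquois family, also separated the ages completely (log2 fold change 3.17 ± 0.18 SE, adjusted p = 7.63e-25). Dmrta2 ranged from 1.51 to 3.7 CPM at 15 months (median 2.44) and from 8.95 to 14.4 CPM at 28 months (median 12.2). Dmrta2, a doublesex-related factor of forebrain development, rose without overlap as well (log2 fold change 2.32 ± 0.11 SE, adjusted p = 1.96e-29), and so did Dmrta2os, the antisense transcript that lies 240 bases from it (log2 fold change 2.44 ± 0.16 SE, adjusted p = 1.71e-21). The rises of these 3 factors ran from 4.14 to 4.70 for Tfap2a, from 2.87 to 3.51 for Irx2 and from 2.13 to 2.50 for Dmrta2 on the log2 scale in the single batches. At 24 months their medians already stood at 2.38, 1.04 and 10.1 CPM.

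Gata4, the factor that marks the upper small intestine, rose from a low level too. Gata4 ranged from 0.367 to 2.52 CPM at 15 months (median 1.23) and from 2.47 to 5.74 CPM at 28 months (median 4.03). In 17 of the 18 mice of 28 months it lay above every mouse of 15 months (log2 fold change 1.56 ± 0.21 SE, adjusted p = 1.46e-08). Of 27 factors of epithelial identity tested, Tfap2a and Gata4 among them, 6 rose (22.2%, against 20.2% of all genes) and 3 fell (11.1%, against 22.2%), with a median log2 fold change of -0.0032 against -0.0029 over all genes tested. Foxa3, which acts in secretory cells, fell (log2 fold change -0.34 ± 0.07 SE, adjusted p = 4.47e-05), and Hnf4a, a regulator of enterocyte genes, did not pass the test (log2 fold change -0.05 ± 0.04 SE, adjusted p = 0.356).

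**Figure D1:**
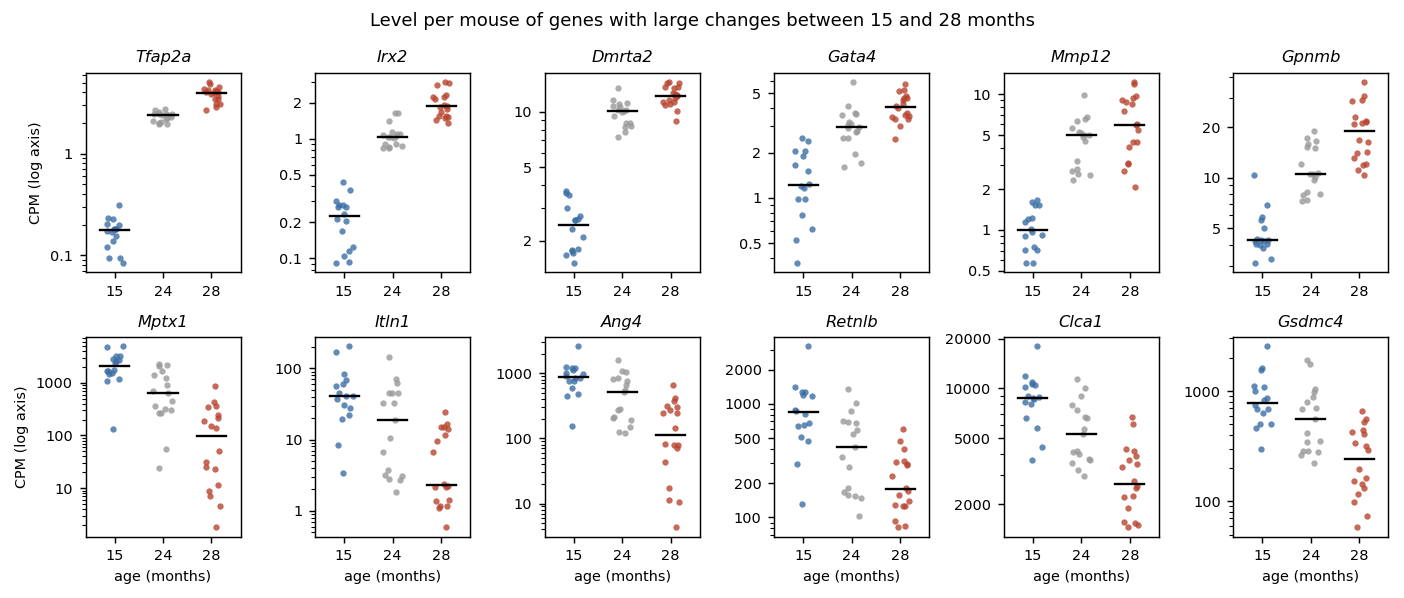
Level of 12 genes in each mouse (1 point per mouse) in CPM on a log axis at 15 (blue, n = 16), 24 (grey, n = 17) and 28 months (red, n = 18), with the median as a bar. The 28-month mice of Tfap2a, Irx2, Dmrta2, Mmp12 and Gpnmb all lie above the 15-month mice, and the medians of Mptx1 drop from 2048 to 96.2 CPM.

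Epithelial genes of antibacterial defence were among the largest falls. Of 28 tested, 19 fell and 3 rose, with a median log2 fold change of -0.64. Mptx1 ranged from 135 to 4902 CPM at 15 months (median 2048) and from 1.79 to 871 CPM at 28 months (median 96.2). The 15-month mice spread widely, and 9 of the 28-month mice lay below the lowest of them (log2 fold change -3.75 ± 0.53 SE, adjusted p = 3.24e-08). Itln1 ranged from 3.41 to 203 CPM at 15 months (median 40.8) and from 0.583 to 24.1 CPM at 28 months (median 2.31). Itln1, an intelectin that binds bacterial sugars, fell as well, with 10 of the 28-month mice under the whole 15-month range (log2 fold change -2.88 ± 0.49 SE, adjusted p = 2.65e-06).

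Other genes of epithelial secretion and defence followed. Ang4 ranged from 153 to 2571 CPM at 15 months (median 883) and from 4.29 to 666 CPM at 28 months (median 112). Ang4, an angiogenin with antibacterial activity, overlapped in part between the ages (log2 fold change -2.33 ± 0.39 SE, adjusted p = 2.31e-06). Retnlb ranged from 132 to 3209.8 CPM at 15 months (median 846) and from 81.4 to 605 CPM at 28 months (median 177). For Retnlb, a resistin-like goblet cell protein, 6 mice of 28 months lay under the 15-month range and the others within it (log2 fold change -2.04 ± 0.31 SE, adjusted p = 2.56e-07). Gsdmc4 ranged from 298 to 2534 CPM at 15 months (median 784) and from 58 to 665 CPM at 28 months (median 244). Gsdmc4 and its neighbours Gsdmc3 and Gsdmc2, gasdermins of the C family that form membrane pores, all fell, with log2 fold changes of -1.76, -1.64 and -1.63. They are closely related copies, so their separate counts are uncertain, although only uniquely mapped reads were counted. The oxidase Duox2 fell (log2 fold change -0.72 ± 0.13 SE, adjusted p = 1.45e-05), with -1.17, -0.72 and -0.04 in the 3 batches. The lectins Reg3b (log2 fold change -0.81 ± 0.47 SE, adjusted p = 0.185) and Reg3g (log2 fold change -0.66 ± 0.38 SE, adjusted p = 0.175) did not pass the test. Lcn2, S100a8 and S100a9, which neutrophils carry too, rose by 0.64, 0.85 and 1.32 on the log2 scale, from medians of 1.39, 0.103 and 0.118 CPM at 15 months, and the call of S100a8 was lost without mouse 14 of 28 months (log2 fold change 0.67).

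Most goblet cell genes fell. Of 19 goblet and mucus genes tested, 16 fell and 0 rose. Itln1 and Retnlb stand in this list and in that of defence genes, Ang4 in this list. Their summed level ran from 26264 to 60246 CPM at 15 months (median 46298) and from 26685 to 38369 CPM at 28 months (median 30589). Clca1 ranged from 3697 to 17917 CPM at 15 months (median 8813) and from 1447 to 6710.2 CPM at 28 months (median 2664). Clca1, a protease that opens the mucus network, lay below the 15-month range in 13 of the 28-month mice (log2 fold change -1.52 ± 0.19 SE, adjusted p = 7.02e-10). Fcgbp, another mucus protein, fell (log2 fold change -0.71 ± 0.11 SE, adjusted p = 4.36e-07), and so did the mucin Muc2 (log2 fold change -0.20 ± 0.06 SE, adjusted p = 0.00726). Zg16, which aggregates bacteria in the mucus, did not pass the test (log2 fold change 0.03 ± 0.06 SE, adjusted p = 0.723). Clca2 ranged from 1.41 to 5.17 CPM at 15 months (median 2.58) and from 0.209 to 1.66 CPM at 28 months (median 0.761). Clca2, a relative of Clca1, had 17 of the 28-month mice under the 15-month range (log2 fold change -1.80 ± 0.21 SE, adjusted p = 1.2e-10). Tff2, the trefoil peptide of gastric mucus, went the other way (log2 fold change 1.85 ± 0.25 SE, adjusted p = 9.33e-09), from a median of 0.39 to 1.64 CPM, whereas Tff3, the colonic trefoil peptide, fell (log2 fold change -0.26 ± 0.07 SE, adjusted p = 0.00116).

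Most tuft cell genes and some enteroendocrine hormone genes fell too. Of 17 tuft cell genes tested, 14 fell and 2 rose, with a median of -0.55. Trpm5 ranged from 9.57 to 18.3 CPM at 15 months (median 14.8) and from 5.58 to 13.2 CPM at 28 months (median 9.16). In 12 of the 28-month mice Trpm5, the cation channel of taste and tuft cell signalling, was under the 15-month range (log2 fold change -0.73 ± 0.07 SE, adjusted p = 1.13e-12). The tuft cell master regulator Pou2f3 (log2 fold change -0.66 ± 0.09 SE, adjusted p = 4.43e-09) and Rgs13 (log2 fold change -0.87 ± 0.10 SE, adjusted p = 3.58e-11) fell likewise. The 2 genes that rose, Ptgs1 and Hpgds, are enzymes of prostaglandin synthesis that other cells express as well, and the call of Hpgds was lost without mouse 8 of 15 months (log2 fold change 0.12). Of 20 enteroendocrine genes tested, 8 fell (40%, against 22.2% of all genes) and none rose. The list's medians were -0.04, -0.24 and -0.31 in the 3 batches. Gcg ranged from 38.4 to 68.1 CPM at 15 months (median 54.7) and from 23.9 to 47.3 CPM at 28 months (median 30.8). 15 mice of 28 months lay under the 15-month range of Gcg, the proglucagon gene (log2 fold change -0.73 ± 0.07 SE, adjusted p = 3.76e-13). Neurotensin, encoded by Nts (log2 fold change -1.17 ± 0.13 SE, adjusted p = 1.56e-11), and the insulin-like hormone Insl5 (log2 fold change -1.03 ± 0.16 SE, adjusted p = 3.58e-07) fell too, while the granule protein Chga (log2 fold change -0.12 ± 0.08 SE, adjusted p = 0.263) and Tph1, the enzyme of serotonin synthesis (log2 fold change -0.14 ± 0.08 SE, adjusted p = 0.204), did not pass the test.

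Values of 4 single genes of eosinophils and of the interleukin 33 response, chosen after their values were seen, are given beside these falls. Of 15 mast cell and granulocyte genes tested, which include eosinophil genes, 6 rose and 3 fell. These were 40% and 20%, against 20.2% and 22.2% of all genes, so that the falls were near that share. The list's median was 0.46, with Siglecf as the lowest member and S100a9, which also stands in the defence list, as the highest. Il1rl1, the receptor of interleukin 33, fell (log2 fold change -0.77 ± 0.18 SE, adjusted p = 0.000374), and Siglecf, a lectin of eosinophils and tuft cells, lay below the 15-month range in 17 of the 28-month mice (log2 fold change -0.94 ± 0.10 SE, adjusted p = 6.22e-12). The eosinophil receptor Ccr3 fell (log2 fold change -0.80 ± 0.33 SE, adjusted p = 0.0472), a call lost without mouse 15 of 15 months (log2 fold change -0.59), but the eosinophil granule gene Prg2 rose (log2 fold change 0.74 ± 0.18 SE, adjusted p = 0.000768). Whether these values bear on the falls of the epithelial genes was not tested.

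Other large falls were of enzymes and of proteins that bind calcium. Pla2g4c ranged from 3.59 to 849 CPM at 15 months (median 71.2) and from 3.03 to 79.6 CPM at 28 months (median 4.51). Pla2g4c, a phospholipase A2, varied widely between mice of one age, and its fall was -5.46, -3.59 and -1.33 in the 3 batches (log2 fold change -3.64 ± 0.67 SE, adjusted p = 1.23e-05 over all). Pnliprp2 ranged from 2.47 to 250.2 CPM at 15 months (median 38.1) and from 1.27 to 31.2 CPM at 28 months (median 3.24). The lipase gene Pnliprp2 fell with a similar spread (log2 fold change -2.87 ± 0.53 SE, adjusted p = 1.19e-05). Of 11 genes of the exocrine pancreas, which also makes this lipase, only 2 passed the filter, Cela1 (log2 fold change -0.09 ± 0.06 SE, adjusted p = 0.243) and Cpb1, which rose with nearly level medians of 0.15 and 0.171 CPM (log2 fold change 2.15 ± 0.73 SE, adjusted p = 0.0158). The rise of Cpb1 rested on mouse 14 of 28 months, at 9.84 CPM, and was lost without it (log2 fold change 0.19). S100g ranged from 0.81 to 22.6 CPM at 15 months (median 6.37) and from 0.438 to 5.38 CPM at 28 months (median 1.1). S100g, the calcium carrier calbindin D9k, overlapped in most mice (log2 fold change -2.08 ± 0.38 SE, adjusted p = 1.19e-05). Dmp1 ranged from 1.42 to 7.07 CPM at 15 months (median 4.3) and from 0.263 to 2.96 CPM at 28 months (median 1.08). Dmp1, known from bone mineral, fell below the 15-month range in 16 of the 28-month mice (log2 fold change -1.92 ± 0.26 SE, adjusted p = 9.26e-09). Anxa13, an annexin of the epithelium, did so in 17 (log2 fold change -1.91 ± 0.18 SE, adjusted p = 5.15e-14).

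Atp12a, the proton pump of the distal colon, fell as well. Atp12a ranged from 3.79 to 44.1 CPM at 15 months (median 8.53) and from 0.627 to 7.17 CPM at 28 months (median 2.19). 15 mice of 28 months were under the 15-month range (log2 fold change -2.18 ± 0.38 SE, adjusted p = 4.03e-06). Of 6 tested marker genes of the distal colon, 2 fell (33.3%, against 22.2% of all genes), Atp12a being 1 of them, and 0 rose. The list's summed level was 404 to 615 CPM at 15 months and 331 to 539.6 CPM at 28 months. The posterior genes Hoxa13 (-0.08), Hoxb13 (-0.09) and Hoxd13 (-0.42) did not pass the test, and of 31 Hox and axial genes 5 rose (16.1%) and 1 fell (3.23%), against 20.2% and 22.2% of all genes. Of 7 genes of the small intestine tested, 4 rose, among them Rbp2 (log2 fold change 0.61 ± 0.11 SE, adjusted p = 9.89e-06), a retinol-binding protein, and none fell. The part of the exact position of the tissue in these results was not tested.

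Of 32 absorptive colonocyte genes tested, 6 rose (18.8%) and 10 fell (31.2%), against 20.2% and 22.2% of all genes tested, and the list's median was 0.04. The fatty acid transporter Slc5a8 (log2 fold change -0.45 ± 0.07 SE, adjusted p = 1.79e-06) and the carbonic anhydrase Car4 (log2 fold change -0.42 ± 0.07 SE, adjusted p = 3.84e-06) fell, the sodium-proton exchanger Slc9a3 rose (log2 fold change 0.42 ± 0.12 SE, adjusted p = 0.00383), and Car1, shown above, did not pass the test (log2 fold change -0.10 ± 0.09 SE, adjusted p = 0.442). Stem cell and Wnt target genes gave 2 rises and 4 falls of 19, the falls (21.1%) being near the 22.2% of all genes tested, and Lgr5 (log2 fold change 0.05 ± 0.10 SE, adjusted p = 0.728) was not called. The Wnt inhibitors Notum (log2 fold change -0.92 ± 0.18 SE, adjusted p = 2.1e-05) and Kremen2, which binds Dickkopf proteins (log2 fold change -1.23 ± 0.11 SE, adjusted p = 3.38e-14), fell, and Rnf43, which removes Wnt receptors, rose (log2 fold change 0.30 ± 0.05 SE, adjusted p = 6.24e-06). Cell cycle genes fell in 17 of 34 and none rose, with a list median of -0.16, for example Top2a (log2 fold change -0.23 ± 0.07 SE, adjusted p = 0.00766), whereas Mki67 (log2 fold change -0.14 ± 0.07 SE, adjusted p = 0.126) did not pass the test. This list's median was -0.24, -0.08 and -0.05 in the 3 batches. Of 14 replication-dependent histones, 10 fell and none rose. These transcripts mostly lack a poly(A) tail and are poorly captured by the libraries used.

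**Figure D2:**
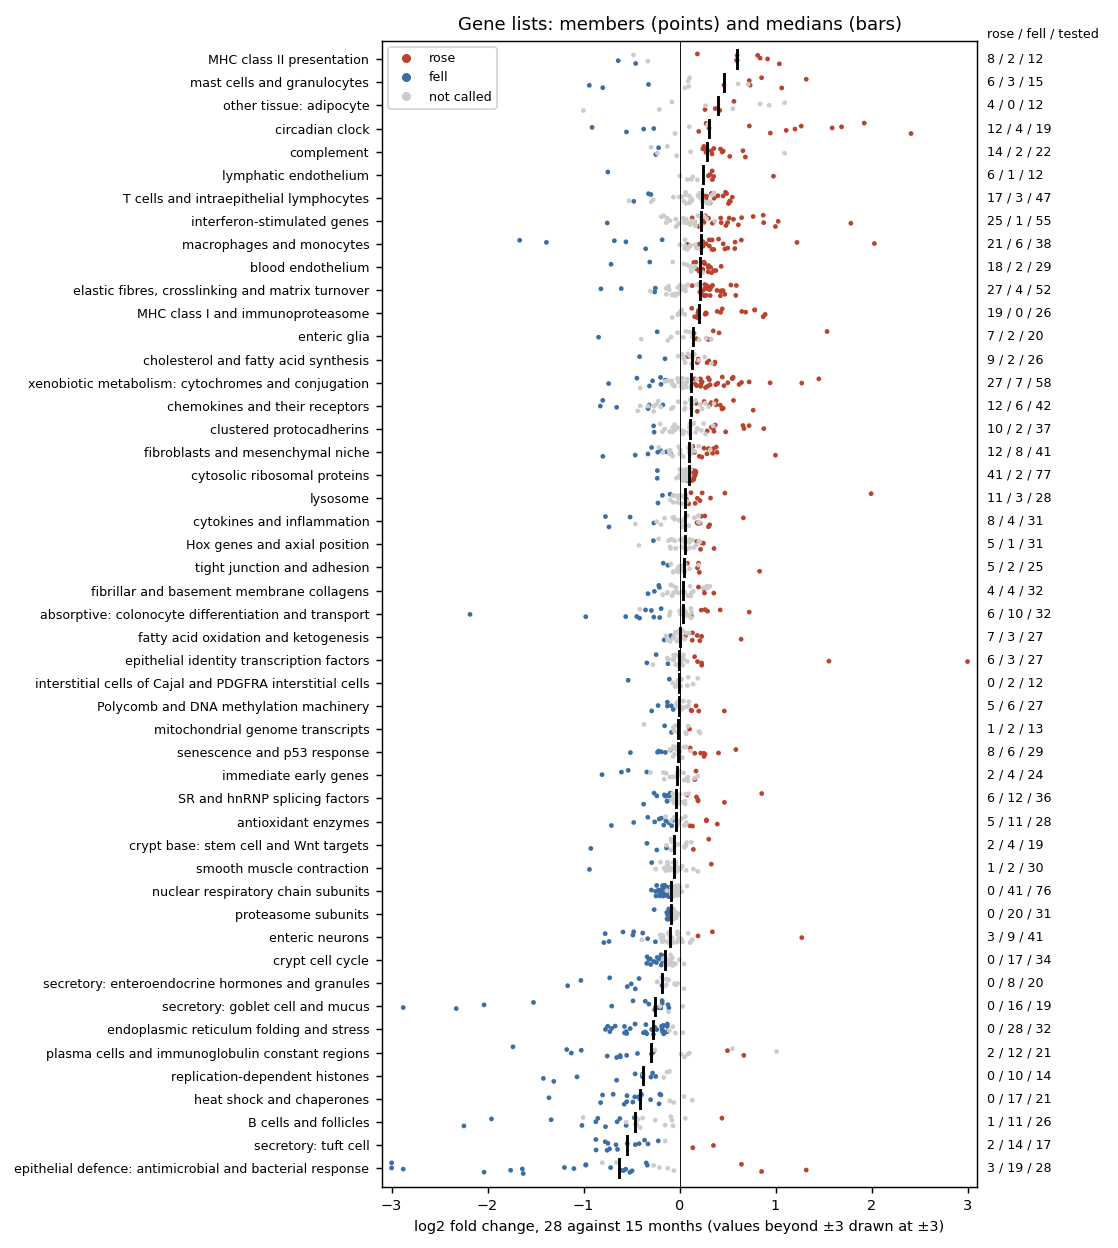
Log2 fold change of 28 against 15 months for the members of each gene list with at least 10 genes tested (points, red for genes that rose, blue for genes that fell, grey for the others), with the list median as a bar and the counts risen, fallen and tested at the right. The lists of epithelial defence and tuft cells lie lowest and MHC class II presentation highest, at medians of -0.64, -0.55 and 0.60.

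Protein folding genes fell broadly, in the endoplasmic reticulum and in the cytosol. Of 32 genes of folding and stress in the endoplasmic reticulum, 28 fell and none rose, with a median of -0.28. Hspa5 ranged from 630.4 to 1193 CPM at 15 months (median 913) and from 435 to 744 CPM at 28 months (median 583). 12 mice of 28 months were under the 15-month range of Hspa5, the chaperone BiP (log2 fold change -0.67 ± 0.10 SE, adjusted p = 1.24e-07). Creld2 ranged from 40.1 to 75.1 CPM at 15 months (median 56.7) and from 25.2 to 43 CPM at 28 months (median 34.2). Creld2, a disulfide isomerase induced by unfolded proteins, was under it in 15 (log2 fold change -0.75 ± 0.11 SE, adjusted p = 7.06e-08). In the cytosol, 17 of 21 heat shock genes fell and none rose. Hsph1 ranged from 34.8 to 144 CPM at 15 months (median 86) and from 25.1 to 110.1 CPM at 28 months (median 30.2). Hsph1, a nucleotide exchange factor of Hsp70, lay below the 15-month range in 14 of the 28-month mice (log2 fold change -1.36 ± 0.24 SE, adjusted p = 8.25e-06), and the highest mouse of 28 months was mouse 13, the one that stood apart. Without that mouse its log2 fold change was -1.54. The cytosolic chaperones Hsp90aa1 (log2 fold change -0.69 ± 0.14 SE, adjusted p = 4.68e-05) and Hspa8 (log2 fold change -0.55 ± 0.13 SE, adjusted p = 0.000362) fell as well.

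Of 36 splicing factors and RNA-binding proteins tested, 6 rose (16.7%) and 12 fell (33.3%), against 20.2% and 22.2% of all genes. The list's median was -0.04. Among the rises was Cirbp, a cold-inducible RNA-binding protein. Cirbp ranged from 34.1 to 87.7 CPM at 15 months (median 49.1) and from 52.7 to 117 CPM at 28 months (median 96.5). In 12 of the 28-month mice Cirbp exceeded all 15-month mice (log2 fold change 0.86 ± 0.10 SE, adjusted p = 1.74e-10), and Rbm3, which cold also induces, rose too (log2 fold change 0.47 ± 0.07 SE, adjusted p = 1.6e-07).

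Falls of small size were seen in the machinery of respiration and protein degradation. Of 76 nuclear-encoded subunits of the respiratory chain, 41 fell and none rose, with a median of -0.09 and a range from -0.29 to 0.08. The medians were -0.12, -0.0014 and -0.13 in the 3 batches. Of 31 proteasome subunits, 20 fell and none rose (median -0.09), and the list's medians were -0.11, -0.01 and -0.08 in the 3 batches. Of 13 transcripts of the mitochondrial genome, 1 rose and 2 fell. The cytosolic ribosomal proteins went the other way, with 41 risen and 2 fallen of 77 (median 0.09). Their median was 0.11 and 0.20 in batches 1 and 2 but -0.01 in batch 3. Among 28 antioxidant enzymes, 11 fell (39.3%, against 22.2% of all genes), such as the peroxidases Gpx2 (log2 fold change -0.71 ± 0.10 SE, adjusted p = 2.2e-08) and Prdx6 (log2 fold change -0.48 ± 0.08 SE, adjusted p = 2.82e-06), and 5 rose (17.9%, near the 20.2% of all genes), among them Gclc, the enzyme that limits glutathione synthesis (log2 fold change 0.39 ± 0.06 SE, adjusted p = 1.18e-06).

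Of 38 macrophage and monocyte genes, 21 rose and 6 fell, with a median of 0.22. The list's log2 fold changes ran from -1.67, for Spp1, to 2.03, for Gpnmb. Gpnmb ranged from 3.09 to 10.3 CPM at 15 months (median 4.23) and from 10.4 to 37 CPM at 28 months (median 18.9). Gpnmb, a glycoprotein of lysosome-rich macrophages, did not overlap, though the lowest 28-month mouse nearly met the highest 15-month mouse (log2 fold change 2.03 ± 0.16 SE, adjusted p = 8.56e-18). Trem2 ranged from 0.685 to 1.84 CPM at 15 months (median 1.16) and from 1.46 to 4.57 CPM at 28 months (median 2.73). Trem2, the lipid receptor, exceeded the 15-month range in 16 of the 28-month mice (log2 fold change 1.22 ± 0.12 SE, adjusted p = 1.9e-13). The elastase gene Mmp12, which macrophages express but which is not in that list, was among the largest rises. Mmp12 ranged from 0.567 to 1.65 CPM at 15 months (median 0.99) and from 2.08 to 12.2 CPM at 28 months (median 5.95). Mmp12 separated the ages completely (log2 fold change 2.63 ± 0.20 SE, adjusted p = 7.21e-18). Apoe (log2 fold change 0.58 ± 0.09 SE, adjusted p = 1.7e-07), Cx3cr1, the receptor of resident gut macrophages (log2 fold change 0.46 ± 0.10 SE, adjusted p = 0.000309), and C1qa (log2 fold change 0.28 ± 0.09 SE, adjusted p = 0.0121) rose as well. Among the genes that fell were Spp1, which encodes osteopontin (log2 fold change -1.67 ± 0.24 SE, adjusted p = 9.84e-08), the dendritic cell lectin Cd209a (log2 fold change -1.39 ± 0.21 SE, adjusted p = 1.69e-07) and the monocyte antigen gene Ly6c2 (log2 fold change -0.68 ± 0.22 SE, adjusted p = 0.0123).

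Complement genes rose in 14 (63.6%) and fell in 2 (9.09%) of 22, against 20.2% and 22.2% of all genes. The highest value of this list, 1.10, was also the highest of the adipocyte list. C3 ranged from 34 to 144 CPM at 15 months (median 69.5) and from 53.6 to 209 CPM at 28 months (median 119). The central component C3 overlapped in most mice (log2 fold change 0.69 ± 0.17 SE, adjusted p = 0.000673), and its log2 fold change was 0.32, 0.71 and 1.27 in the 3 batches. Genes of elastic fibres, crosslinking and matrix turnover rose in 27 and fell in 4 of 52, with rises of the protease inhibitor Timp3 (log2 fold change 0.43 ± 0.07 SE, adjusted p = 1.38e-06) and the proteoglycan Dcn (log2 fold change 0.43 ± 0.08 SE, adjusted p = 3.52e-05). Collagen genes gave 4 rises and 4 falls of 32, and Col1a1 (log2 fold change -0.17 ± 0.11 SE, adjusted p = 0.218) did not pass the test. Mmp9, a gelatinase, fell (log2 fold change -0.82 ± 0.14 SE, adjusted p = 5.36e-06).

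Many genes of antigen presentation and of the interferon response rose, with a wide spread between the 28-month mice. Of 26 genes of MHC class I and the immunoproteasome, 19 rose and none fell. Of 12 genes of class II presentation, 8 rose and 2 fell, the latter being H2-Ob and H2-DMb2. Both falls lost their call without mouse 16 of 15 months (log2 fold changes -0.49 and -0.37), and that of H2-DMb2 also without other single mice. H2-Aa ranged from 164 to 307 CPM at 15 months (median 217) and from 147 to 1354 CPM at 28 months (median 366). H2-Aa, a class II chain, was above the 15-month range in 11 of the 28-month mice and below it in 1 (log2 fold change 0.92 ± 0.16 SE, adjusted p = 6.38e-06). Mouse 1 of the 28-month group was the highest, and leaving out any 1 mouse gave values from 0.70 to 0.97. The invariant chain Cd74 (log2 fold change 0.81 ± 0.16 SE, adjusted p = 5.64e-05) and the transactivators of both classes, Ciita (log2 fold change 0.84 ± 0.17 SE, adjusted p = 5.6e-05) and Nlrc5 (log2 fold change 0.87 ± 0.14 SE, adjusted p = 1.54e-06), rose as well. H2-Q and H2-T genes resemble each other closely, so that reads mapping to several of them were not counted and their separate values are uncertain.

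Of 55 interferon-stimulated genes, 25 rose and 1 fell. Iigp1 ranged from 14.3 to 47.1 CPM at 15 months (median 22) and from 26.7 to 302 CPM at 28 months (median 54.6). Iigp1, an immunity-related GTPase that attacks vacuoles of intracellular parasites, exceeded the 15-month range in 10 of the 28-month mice (log2 fold change 1.78 ± 0.27 SE, adjusted p = 1.64e-07). The predicted genes Gm4951 (log2 fold change 1.85 ± 0.24 SE, adjusted p = 3.89e-09) and Gm4841 (log2 fold change 2.53 ± 0.39 SE, adjusted p = 2.37e-07), which lie 20485 bases apart on the same chromosome, rose as well. Gbp2 ranged from 18.5 to 43.3 CPM at 15 months (median 27.4) and from 22 to 117 CPM at 28 months (median 41.6). Gbp2, a guanylate-binding protein, was 1.05, 0.30 and 1.26 higher on the log2 scale in the 3 batches (log2 fold change 0.88 ± 0.17 SE, adjusted p = 3.06e-05 over all). Isg15 (log2 fold change -0.14 ± 0.17 SE, adjusted p = 0.55) and Ifit1 (log2 fold change 0.22 ± 0.13 SE, adjusted p = 0.194), known from the response to type I interferon, were not called, and Mx1 was the 1 that fell (log2 fold change -0.75 ± 0.13 SE, adjusted p = 3.07e-06). The chemokine Cxcl9 rose (log2 fold change 0.77 ± 0.23 SE, adjusted p = 0.0067), by 0.46 without mouse 1 of 28 months.

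**Figure D3:**
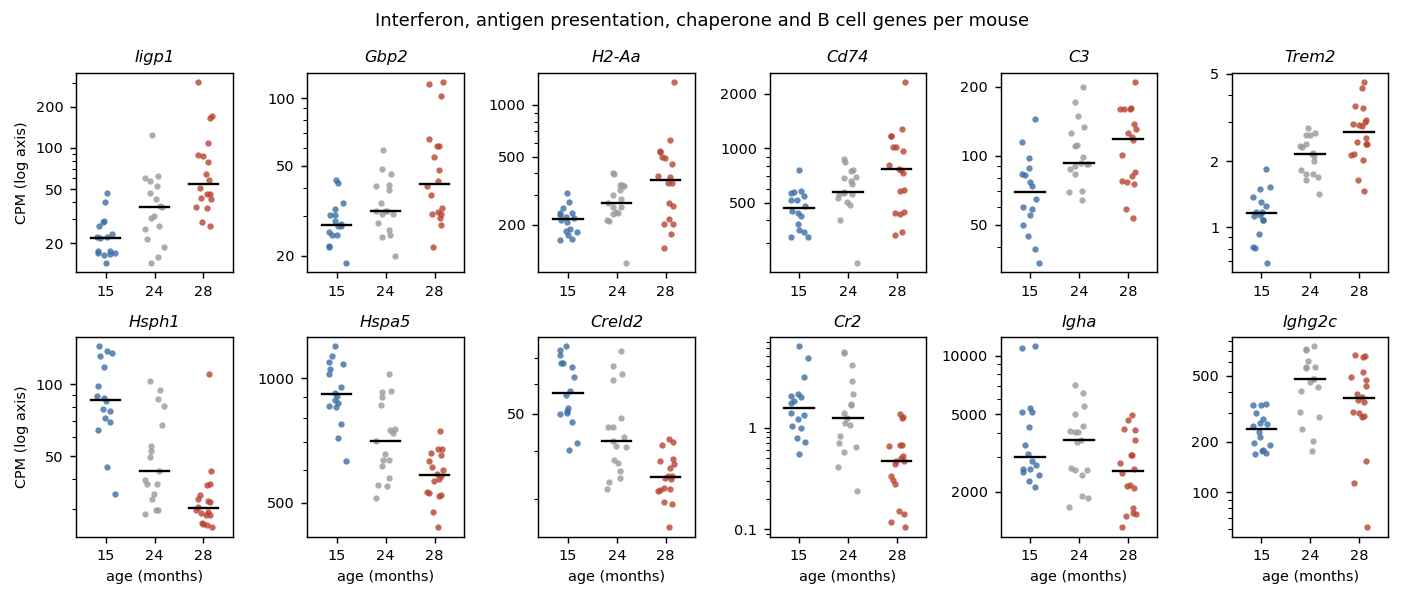
Level of 12 genes in each mouse in CPM on a log axis at 15 (blue, n = 16), 24 (grey, n = 17) and 28 months (red, n = 18), with the median as a bar. Iigp1, Gbp2, H2-Aa and Cd74 reach their highest values in single 28-month mice, while Hspa5 and Creld2 shift as a whole, from medians of 913 to 583 CPM for Hspa5.

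B cell genes gave more falls than rises and T cell genes more rises than falls. Of 26 genes of B cells and follicles, 11 fell and 1 rose. Cr2 ranged from 0.547 to 6.26 CPM at 15 months (median 1.57) and from 0.104 to 1.34 CPM at 28 months (median 0.472). Cr2, the complement receptor of B cells and follicular dendritic cells, lay under the 15-month range in 12 of the 28-month mice (log2 fold change -1.96 ± 0.46 SE, adjusted p = 0.000507). The log2 fold changes of Cr2 were -2.24, -0.71 and -2.98 in the 3 batches, and the list's medians were -0.78, 0.05 and -0.87. Lymphoid follicles are unevenly spread along the colon, and the summed level of these genes ran from 96.3 to 266 CPM among mice of 15 months and from 90 to 173 CPM at 28 months. Of 47 T cell genes, 17 rose and 3 fell. Il2ra (log2 fold change 0.55 ± 0.11 SE, adjusted p = 5.84e-05) and Cd4 (log2 fold change 0.33 ± 0.12 SE, adjusted p = 0.0194) were among those that rose, and the receptor subunit Cd3e (log2 fold change 0.19 ± 0.11 SE, adjusted p = 0.17) did not pass the test.

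Antibody constant regions went in both directions. Igha ranged from 2099.9 to 11137 CPM at 15 months (median 2996) and from 1307 to 4948 CPM at 28 months (median 2545). Igha, the constant region of immunoglobulin A, fell (log2 fold change -0.62 ± 0.19 SE, adjusted p = 0.00892), with -1.23, -0.41 and -0.04 in the 3 batches. Ighg2c ranged from 169 to 339.9 CPM at 15 months (median 239) and from 61.5 to 662 CPM at 28 months (median 365). Ighg2c, a constant region of immunoglobulin G, rose (log2 fold change 0.67 ± 0.19 SE, adjusted p = 0.004), with 11 of the 28-month mice above and 3 below the 15-month range. Of 21 plasma cell and constant region genes, 2 rose and 12 fell. Jchain, which joins immunoglobulin A into dimers, fell (log2 fold change -0.62 ± 0.17 SE, adjusted p = 0.00275). Of 175 immunoglobulin variable segments, 8 rose (4.57%) and 27 fell (15.4%), both below the 20.2% and 22.2% of all genes. In the median segment, 1 mouse held 19.4% of the summed level of all 34 mice.

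For the circadian clock genes, the 24-month medians lay near those of 15 months and the 28-month mice spread widely. The clock is a loop in which Arntl and Clock switch on their own repressors and outputs over the day. Of 19 clock genes, 12 rose and 4 fell. Ciart ranged from 0.405 to 1.69 CPM at 15 months (median 0.742) and from 0.529 to 11 CPM at 28 months (median 3.59). Ciart, a repressor of the loop, was above the 15-month range in 11 of the 28-month mice and within it in the other 7 (log2 fold change 2.41 ± 0.31 SE, adjusted p = 2.36e-09). Dbp ranged from 3.38 to 11.2 CPM at 15 months (median 5.3) and from 2.57 to 76.4 CPM at 28 months (median 22). Dbp, an output of the loop, was above the range in 11 mice and below it in 1 (log2 fold change 1.92 ± 0.32 SE, adjusted p = 2.23e-06). Arntl ranged from 43.2 to 58 CPM at 15 months (median 49.7) and from 10.1 to 55.3 CPM at 28 months (median 36.2). Arntl fell, lying below the 15-month range in 11 mice of 28 months (log2 fold change -0.55 ± 0.12 SE, adjusted p = 0.00027).

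The mice outside the range were largely the same for all these genes. All 11 mice of 28 months with Ciart above the 15-month range had Dbp, Tef, Per3 and Nr1d1 above it and Arntl and Nfil3 below it. They stood in all 3 batches, 5 in batch 1, 2 in batch 2 and 4 in batch 3. At 24 months, 1 of 17 mice was outside the 15-month range for Ciart, and 1 for Arntl. The median of Ciart was 0.653 CPM at 24 months, that of Dbp 3.97 and that of Arntl 53.7. Of the other members, Tef (log2 fold change 1.69 ± 0.21 SE, adjusted p = 6.05e-10), Per3 (log2 fold change 1.59 ± 0.18 SE, adjusted p = 5.12e-11) and Nr1d1 (log2 fold change 1.27 ± 0.28 SE, adjusted p = 0.000191) rose and Nfil3, the repressor of Dbp targets (log2 fold change -0.91 ± 0.14 SE, adjusted p = 4.1e-07), and Cry1 (log2 fold change -0.37 ± 0.13 SE, adjusted p = 0.0197) fell, while Clock (log2 fold change -0.05 ± 0.05 SE, adjusted p = 0.449) was not called. Whether the hour of sampling had a part in these values was not tested.

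**Figure D4:**
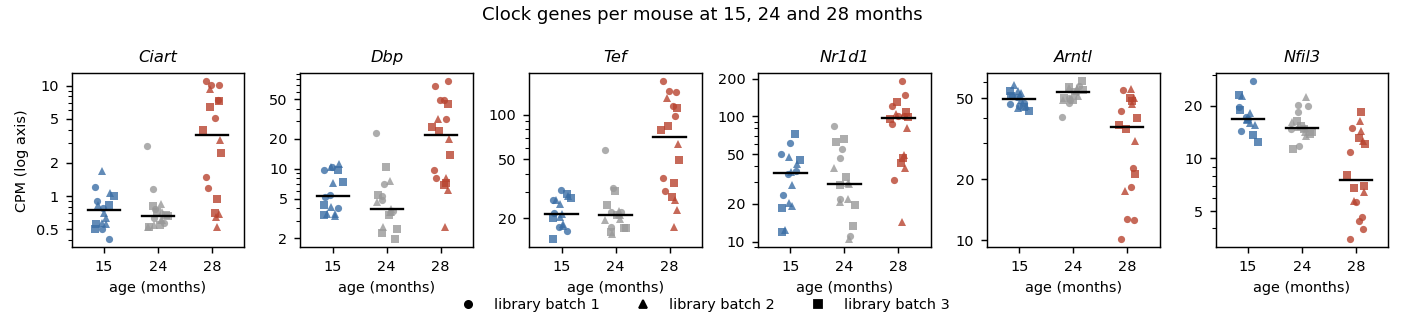
Level of 6 clock genes in each mouse in CPM on a log axis at 15, 24 and 28 months, with circles, triangles and squares for library batches 1, 2 and 3 and the median as a bar. At 28 months, Ciart lies above the 15-month range in 11 of 18 mice and Arntl below it in 11, with mice of every batch on both sides.

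Several genes outside these lists separated the ages with no overlap. Vsig2 ranged from 47.9 to 66 CPM at 15 months (median 54.4) and from 81.6 to 107 CPM at 28 months (median 96.8). Vsig2, a cell surface protein of the immunoglobulin fold, rose with no overlap between the ages (log2 fold change 0.79 ± 0.05 SE, adjusted p = 3.5e-21). Cstf2t ranged from 28.6 to 44 CPM at 15 months (median 38.6) and from 20.4 to 28.4 CPM at 28 months (median 25.2). Cstf2t, a polyadenylation factor, fell with no overlap (log2 fold change -0.63 ± 0.05 SE, adjusted p = 1.4e-18). Armcx3 ranged from 18.2 to 24.2 CPM at 15 months (median 21.7) and from 9.3 to 17.1 CPM at 28 months (median 13.9). The same held for Armcx3, a protein of the mitochondrial surface (log2 fold change -0.61 ± 0.05 SE, adjusted p = 1.99e-16). Map10, which binds microtubules (log2 fold change -1.18 ± 0.10 SE, adjusted p = 2.1e-15), the zinc finger gene Zfp37 (log2 fold change -0.79 ± 0.07 SE, adjusted p = 6.69e-15) and the kinase gene Stk32a (log2 fold change -0.92 ± 0.12 SE, adjusted p = 6.11e-09) fell without overlap too. At 24 months the medians of Vsig2, Cstf2t and Armcx3 were 85.1, 27.4 and 16.2 CPM.

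Xenobiotic metabolism genes rose in 27 and fell in 7 of 58. Abcb1a, the efflux pump of the apical membrane, exceeded the 15-month range in 16 of the 28-month mice (log2 fold change 0.55 ± 0.09 SE, adjusted p = 3.9e-06), and the cytochrome Cyp4b1 rose (log2 fold change 0.72 ± 0.15 SE, adjusted p = 0.000112). Inmt ranged from 0.525 to 2.39 CPM at 15 months (median 1.53) and from 1.62 to 10.7 CPM at 28 months (median 3.79). Inmt, which methylates indole amines, was among the largest rises (log2 fold change 1.74 ± 0.24 SE, adjusted p = 1.97e-08). Cyp2e1 passed the test (log2 fold change 1.45 ± 0.55 SE, adjusted p = 0.0333) but rested on mouse 14 of 28 months, at 49.9 CPM against a median of 4.09. Without that mouse its log2 fold change was 0.81, with an adjusted p of 0.26. The fat genes Adipoq (log2 fold change 0.56 ± 0.60 SE, adjusted p = 0.501) and Fabp4 (log2 fold change 0.57 ± 0.26 SE, adjusted p = 0.0755) were part of a list of 12 adipocyte genes of which 4 rose, with a summed level of 257 to 622 CPM at 15 months and 272 to 919 CPM at 28 months. The value of Adipoq, which was not called, was 0.21 without mouse 14 of 28 months. The call of Fabp4 was lost without each of several single mice, with the lowest log2 fold change, 0.39, without mouse 14 of 28 months. The part of fat tissue in the metabolic genes was not tested.

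In the wall beneath the mucosa, genes of endothelium and glia gave more rises than falls, and few smooth muscle genes passed the test. Blood endothelial genes rose in 18 and fell in 2 of 29, for example Vwf, the von Willebrand factor (log2 fold change 0.38 ± 0.07 SE, adjusted p = 1.47e-05), while Aplnr, the apelin receptor, fell (log2 fold change -0.71 ± 0.12 SE, adjusted p = 3.07e-06). Of 20 glial genes 7 rose and 2 fell. Apod ranged from 3.52 to 8.55 CPM at 15 months (median 5.06) and from 6.47 to 34 CPM at 28 months (median 14.7). Apod, a lipocalin of glia and fibroblasts, was above the 15-month range in 17 of the 28-month mice (log2 fold change 1.54 ± 0.17 SE, adjusted p = 3e-11). Of 41 neuronal genes 3 rose (7.32%) and 9 fell (22%), the falls being near the 22.2% of all genes tested. The neuropeptide genes Grp (log2 fold change -0.74 ± 0.22 SE, adjusted p = 0.00684) and Gal (log2 fold change -0.59 ± 0.17 SE, adjusted p = 0.00476) fell, whereas Nos1, the enzyme of inhibitory motor neurons, was not called (log2 fold change -0.20 ± 0.21 SE, adjusted p = 0.478). Of 30 smooth muscle genes, 1 rose and 2 fell. The larger fall was that of Chrm3, the muscarinic receptor that colonic muscle and epithelium share (log2 fold change -0.94 ± 0.14 SE, adjusted p = 1.21e-07). Of 41 fibroblast and niche genes, 12 rose (29.3%, against 20.2% of all genes) and 8 fell (19.5%, against 22.2%). Among them the growth factor Nrg1 fell (log2 fold change -0.80 ± 0.14 SE, adjusted p = 6.9e-06) and the Wnt agonist Rspo1 rose (log2 fold change 1.00 ± 0.21 SE, adjusted p = 7.53e-05).

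Genes of senescence and the p53 response showed no common direction, with 8 risen and 6 fallen of 29 (27.6% and 20.7%, against 20.2% and 22.2% of all genes) and a median of -0.02. The cell cycle inhibitor gene Cdkn2b fell (log2 fold change -0.22 ± 0.08 SE, adjusted p = 0.0194). Of 27 genes of Polycomb complexes and DNA methylation, 5 rose and 6 fell (18.5% and 22.2%), near the shares of all genes. Cbx7, a Polycomb subunit that reads methylated histones, rose (log2 fold change 0.47 ± 0.06 SE, adjusted p = 3.53e-10), and Uhrf1, which guides methylation to replicated DNA, fell (log2 fold change -0.22 ± 0.09 SE, adjusted p = 0.0347), while the methyltransferase gene Dnmt3a did not pass the test (log2 fold change 0.03 ± 0.04 SE, adjusted p = 0.663).

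The counts of the remaining lists stand against 20.2% risen and 22.2% fallen of all genes tested. Among chemokines and their receptors 12 rose and 6 fell of 42, and among cytokines and other inflammatory genes 8 rose and 4 fell of 31. Among genes of cholesterol and fatty acid synthesis 9 rose and 2 fell of 26, among lysosomal genes 11 rose and 3 fell of 28, and among genes of fatty acid oxidation 7 rose and 3 fell of 27. Tight junction genes gave 5 rises and 2 falls of 25, and clustered protocadherins, the adhesion molecules of neurons, 10 and 2 of 37. Lymphatic endothelium gave 6 rises and 1 fall of 12, interstitial cells of Cajal 0 and 2 of 12, and immediate early genes 2 and 4 of 24. For tissues outside the colon, 2 of 9 skeletal muscle genes and 5 of 7 red blood cell genes rose, and 1 skeletal muscle gene fell. Of 3 genes of squamous epithelium tested, 1 fell, and 0 without mouse 13 of 28 months or with DESeq2 size factors.

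The share of each library's counts taken by 7 gene classes was compared between the ages with a two-sided permutation test and adjusted over the classes. MHC genes held 0.679% ± 0.0616 of the counts of the 16 younger mice (mean and SD) against 0.887% ± 0.203 in the 18 older ones, a difference with an adjusted permutation p of 0.00021. The 10 most counted genes held 9.12% ± 0.447 and 8.32% ± 0.439 (adjusted permutation p = 0.00014, from the smallest raw p that the permutations drawn can give). Both differences kept their sign within each batch. Ribosomal protein genes held 3.02% ± 0.345 and 3.33% ± 0.286 (adjusted permutation p = 0.0147), with differences of 0.366, 0.5 and -0.0799 percentage points in the 3 batches. Haemoglobins held 0.0019% ± 0.000652 and 0.00322% ± 0.00234 (adjusted permutation p = 0.0519), which passed the threshold of 0.1. Their differences were 0.00288, 0.000637 and 0.000191 percentage points in the 3 batches. Immunoglobulin genes held 1.01% ± 0.615 and 0.743% ± 0.292 (adjusted permutation p = 0.165), which did not pass the threshold, and their medians were 0.738% and 0.733%. The shares of the mitochondrial genome (adjusted permutation p = 0.308) and of collagens (adjusted permutation p = 0.863) did not pass it.

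Among genes that do not encode proteins and reached a mean of 1 CPM at either age and kept one direction in each batch, the largest rises were AC151990.1 (log2 fold change 2.84 ± 0.51 SE, adjusted p = 9.1e-06), Dmrta2os and BC023105 (log2 fold change 1.80 ± 0.34 SE, adjusted p = 1.54e-05), of which the first and the last lie near Iigp1. The rise of AC151990.1 ran from 0.76 in batch 2, which did not pass the test alone, to 4.43 in batch 3 when the batches were fitted separately, and was 2.17 without mouse 1 of 28 months. Kirrel3os (log2 fold change -2.02 ± 0.33 SE, adjusted p = 1.04e-06) and Gsdmcl-ps, a pseudogene of the gasdermin C cluster (log2 fold change -1.79 ± 0.34 SE, adjusted p = 1.97e-05), gave the largest falls, together with Anxa13, which the annotation lists as a processed transcript. Antisense transcripts rose in 125 (23.6%) and fell in 80 (15.1%) of 529, and transcripts that share a promoter with a gene on the other strand rose in 32 (35.6%) and fell in 8 (8.89%) of 90, against 20.2% and 22.2% of all genes tested, so that the rises of antisense transcripts were near the share over all genes.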

How the data were processed

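RNA from the colon of 83 mice was sequenced in 100-base read pairs, and the 34 mice of 15 and 28 months are described. Per the labels and the study's methods, the authors used cutadapt 2.8 for trimming, PrinSeq Lite as a quality filter, HISAT2 2.1.0 for alignment to GRCm38, SAMtools 1.9 to keep uniquely mapped pairs and featureCounts (Subread 2.0.1) for stranded counting per gene. The deposited counts are whole numbers per gene and mouse without normalization. Each library is 1 mouse, so p-values measure the spread between these mice. In R 4.3.3, filterByExpr of edgeR 4.0.16 by age kept 18325 of 37764 genes, TMM scaled the libraries, and a quasi-likelihood fit used age and library batch as terms for the 83 mice together, as the study's methods pool all ages. The 28-month against 15-month contrast was adjusted by the Benjamini-Hochberg method. SE is the log2 fold change divided by the square root of F. A fit with age-by-batch terms over 34 mice tested differences between batches. Shares were tested with 100000 permutations.

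Alternatives were DESeq2 1.42.0, its size factors, no filter, no batch term, the 2 ages alone, each batch alone, the replicate number as a block, a threshold of 0.05 and leaving out each mouse. Named genes are the 12 largest rises and falls among protein-coding genes past the threshold with a mean of at least 1 CPM at 1 of the ages and 1 direction in every batch, without antibody and T cell receptor genes, the 5 of each direction with the smallest p, the 5 largest each way without overlap, the 3 largest each way of other gene types, and members of 55 gene lists. Some genes that this rule names are not reported here. The lists, the comparison and the tests were chosen with earlier results of these data known, and a list's count is read against the share of all genes called. The mice named by number were singled out after their values were seen. For genes with at least 50 counts, the 273 pairs of mice of one age differed by at least 12.7 times counting noise, so no library was taken for a repeat of another. Genes with few counts, such as Tfap2a and Irx2 at 15 months, carry larger counting error. The main fit was run on simulated counts without batch effects, in which 100 genes changed by 0.5 and 100 by 1 on the log2 scale. It called 82 and 99 of these, and 20 of its 201 calls were unchanged genes. Far fewer genes changed there than were called in the data, so these values do not give the error rate in the data. Gene types and positions came from GENCODE vM21 (GRCm38), an earlier release than the one used for counting, which held 37652 of the genes. Promoters came from RefSeq (GRCm38.p6) and were matched by symbol for 12716 tested genes. Python 3.11.15, scipy 1.17.1 and matplotlib 3.10.9 were used for the rest.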

Additional observations from a re-analysis of the deposited data

How the results depend on the processing

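The counts of 3702 higher and 4059 lower genes stayed within 1.5 times with DESeq2 (4010 and 3718), its size factors (3975 and 3687), no filter, no batch term, the 2 ages alone and a threshold of 0.05. Leaving out each mouse gave 3547 to 3984 higher and 3590 to 4226 lower genes, and 6144 of 7761 genes remained called in all 34 of these fits. Batches 1, 2 and 3 alone, with fewer mice, called 1879, 1254 and 1003 higher and 1764, 1102 and 756 lower genes. The replicate numbers only name mice, since no same-numbered pair of mice correlated above 0.1 in its deviations (median 0.0112, 16 pairs) and 0 mice correlated best with their own number. A replicate block called 3159 higher and 3265 lower genes. That block moved 23 of 110 list counts by over 1.5 times. The members that rose went in tuft cell (2 to 1), plasma cells and immunoglobulin constant regions (2 to 0), T cells and intraepithelial lymphocytes (17 to 10), smooth muscle contraction (1 to 2), interstitial cells of Cajal and PDGFRA interstitial cells (0 to 1), immediate early genes (2 to 1), mitochondrial genome transcripts (1 to 0), cytosolic ribosomal proteins (41 to 15), cholesterol and fatty acid synthesis (9 to 4), exocrine pancreas (1 to 0) and red blood cell (5 to 3). The members that fell went in MHC class II presentation (2 to 0), B cells and follicles (11 to 6), T cells and intraepithelial lymphocytes (3 to 1), mast cells and granulocytes (3 to 1), complement (2 to 0), fibrillar and basement membrane collagens (4 to 1), smooth muscle contraction (2 to 4), interstitial cells of Cajal and PDGFRA interstitial cells (2 to 1), mitochondrial genome transcripts (2 to 1), fatty acid oxidation and ketogenesis (3 to 0), cholesterol and fatty acid synthesis (2 to 0) and stratified squamous epithelium (1 to 0). The 9 named genes that lost their call in the block were Ccr3, Cpb1, Cyp2e1, H2-DMb2, H2-Ob, Hpgds, Igha, Ighg2c and Muc2. The test of differences between batches called 0 genes under the alternatives run (size factors, no filter and a threshold of 0.05), with 1199 and 1862 genes at an unadjusted p below 0.05 in the first and second of these.

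The difference in the ribosomal protein share was 0.306 percentage points over all mice and -0.0799 in batch 3. That of the mitochondrial share was 0.186, -0.275 in batch 3 and 0.297 without mouse 16 of 15 months, where it passed the threshold (adjusted permutation p = 0.0159). That of the immunoglobulin share was -0.267 and -0.751 in batch 1, and that of the collagen share was -0.00176 and 0.00158 without mouse 13 of 28 months (-0.00679 without mouse 16 of 15 months), while the mitochondrial difference without mouse 13 was 0.105. The alternatives without mouse 13 or 16 and those for the lists were chosen after seeing the data. The causes were not tested.

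Of 146 genes named, 125 were called. Among these, 8 lost the call without at least 1 single mouse, and 52 in the fit of batch 3 alone. The sign of the log2 fold change turned with library batch 1 alone for Chga (0.0825), Clock (0.0408), with library batch 2 alone for Cela1 (0.101), Dnmt3a (-0.0722), H2-DMb2 (0.00479), Hoxb13 (0.175), Isg15 (0.124) and with library batch 3 alone for Col1a1 (0.0695), Cpb1 (-0.389), Hnf4a (0.0629), Isg15 (0.0404), Ly6c2 (0.0491), Mki67 (0.0406), Zg16 (-0.0175).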
